A study of Mus musculus with 6 samples.

Results

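Nnt and 8 other enzymes of hydrogen peroxide and superoxide handling (Sod1, Sod2, Prdx3, Txn2, Txnrd2, Gpx1, Gpx4 and Cat) were followed in mouse hippocampus, as 46 isoform rows of 133944 and 9 gene symbols of 53354. A row belonged to a gene when its transcript name, without the final number, was that symbol, which gave 6 Nnt rows and 40 rows of the other 8. Nnt had been chosen by its isoform values in these same mice, so its values are given as a description without a test, while the other 8 were listed for their function and were compared by the fit over the whole table.

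The hippocampi came from 3 N-cre mice and 3 N-cre;Fox1 mice of 3 months, with strain C57BL/6 in the labels. All 6 carry a cre transgene driven by the nestin promoter (Nes-cre), whose activity in the hippocampus the study placed in neurons by reporter staining. The N-cre;Fox1 mice also carry 1 copy of an Rbfox1 cDNA behind a CAG promoter and a loxP-flanked STOP cassette in Gt(ROSA)26Sor (R26-Fox1), built in 129/sv embryonic stem cells and then crossed repeatedly to C57BL/6J. Rbfox1 is a splicing factor of neurons, and the series asked which transcripts its up-regulation changes. Hippocampal RNA is a mixture of cell types, so fewer cells of a type and less RNA per cell cannot be told apart here.

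Nnt encodes the nicotinamide nucleotide transhydrogenase, an inner mitochondrial membrane protein that uses the proton gradient to pass hydride from NADH to NADP and so supplies NADPH to the matrix. That NADPH feeds glutathione and, through thioredoxin reductase 2 (Txnrd2) and thioredoxin 2 (Txn2), peroxiredoxin 3 (Prdx3), which reduces hydrogen peroxide. C57BL/6J mice are known for a deletion of several Nnt exons that C57BL/6N mice lack, and the mm10 genome is that of C57BL/6J. The Nnt rows can therefore hold only exons that the C57BL/6J genome has. Their counts alone do not tell whether a mouse carries the deleted ones, and whether an allele with them bears on the split of counts among the rows was not tested.

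Nnt lies on the minus strand at chr13:119335448-119408997 (GRCm38). The symbol joins 2 gene identifiers, ENSMUSG00000025453.18 for Nnt-201 to Nnt-205 and ENSMUSG00000116207.1 for Nnt-206. Nnt-202 has 17 exons and 835 codons, and Nnt-206 has the same codons but starts 45 nt later and ends 80 nt earlier, so every base of Nnt-206 lies inside Nnt-202. Nnt-201 has 15 exons and lacks exon 8 (chr13:119374629-119374774, 146 nt) and exon 9 (chr13:119372396-119372591, 196 nt) of Nnt-202. Both exons are coding, and their 342 nt make up 114 codons with no remainder, which leaves 721 codons in Nnt-201. Exon numbers are those of Nnt-202 in GENCODE M21, and the deleted exons have no number in it. Neither Nnt-202 nor Nnt-206 is therefore the form without the deletion, and whether any of these rows gives a working enzyme was not tested.

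The junctions that tell Nnt-201 from the isoforms with exons 8 and 9 are shown because reads that cross them are among those that can tell these isoforms apart, beside reads inside exons 8 and 9. They cannot tell Nnt-202 from Nnt-206, which hold the same junctions, and Nnt-201 also shares with Nnt-202 the 125 nt at the ends that Nnt-206 lacks. Each line is 36 bases of the transcript, 5′ to 3′, with the upstream exon in lower case and the downstream exon in capitals.
Exons 7 and 8, held by Nnt-202, Nnt-203 and Nnt-206: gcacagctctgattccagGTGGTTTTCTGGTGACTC
Exons 9 and 10, held by the isoforms with exons 8 and 9: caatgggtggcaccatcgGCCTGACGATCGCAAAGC
Exons 7 and 10, held by Nnt-201 alone among these: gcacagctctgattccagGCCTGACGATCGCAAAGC
The letters TGCATG, to which Rbfox proteins are known to bind as UGCAUG, were not in exons 8 and 9 on the sense strand. The shorter GCATG, which the study also counts as an Rbfox1 binding site, does occur in exon 9 (as GGCATG). Only TGCATG was counted, so these exons cannot be said to lack an Rbfox site. TGCATG was found 1 time each in Nnt-201, Nnt-202 and Nnt-206, and 60.9% of 9430 tested isoforms within 20% of the length of Nnt-202 held it at least 1 time. The introns were not searched.

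Nnt-201, without exons 8 and 9, was lower in the N-cre;Fox1 mice, while Nnt-202 was higher and the most abundant row, Nnt-206, overlapped between the genotypes. In CPM (read pairs scaled to libraries of one common size, with TMM factors), Nnt-201 was at 4.83, 4.78 and 4.87 in N-cre replicates 1 to 3 and at 2.16, 1.496 and 1.44 in N-cre;Fox1 replicates 1 to 3. The groups did not overlap, which was so for 11.5% of all isoforms tested. The means were 4.83 ± 0.0468 CPM and 1.70 ± 0.404 CPM (SD, n = 3 each). The fitted log2 fold change of Nnt-201 was -1.51 with an SE of 0.192. This SE, like those of the other Nnt rows and of the Nnt sum, comes from the values that chose Nnt and is no test.

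Nnt-202 was at 1.10, 3.22 and 1.07 CPM in the N-cre mice and at 11.2, 6.78 and 6.58 CPM in the N-cre;Fox1 mice, which is a log2 fold change of 2.19 with an SE of 0.508. The 2 groups did not overlap, but N-cre replicate 2 lay between the other N-cre mice and the lowest N-cre;Fox1 mouse. Nnt-206 was at 28.1, 24.5 and 27.3 CPM against 20.8, 30.4 and 24.96 CPM, with a log2 fold change of -0.07 and an SE of 0.143. Within the N-cre;Fox1 group, the mouse with the most Nnt-202, replicate 1, had the least Nnt-206.

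Because Nnt-206 shares all its bases with Nnt-202, the split between them rests on how RSEM divided the reads, and their sum is the steadier quantity. The sum was 29.2, 27.7 and 28.4 CPM in the N-cre mice and 32.0, 37.2 and 31.5 CPM in the N-cre;Fox1 mice, with means of 28.4 ± 0.759 and 33.6 ± 3.15 (SD, n = 3 each). It was 1.181 times as high in N-cre;Fox1, again without overlap, where 11.5% of isoforms and 12.1% of genes tested did not overlap. Nnt-202 made up 3.76%, 11.6% and 3.75% of this sum in the N-cre mice and 35.0%, 18.2% and 20.9% in the N-cre;Fox1 mice.

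**Figure D1:**
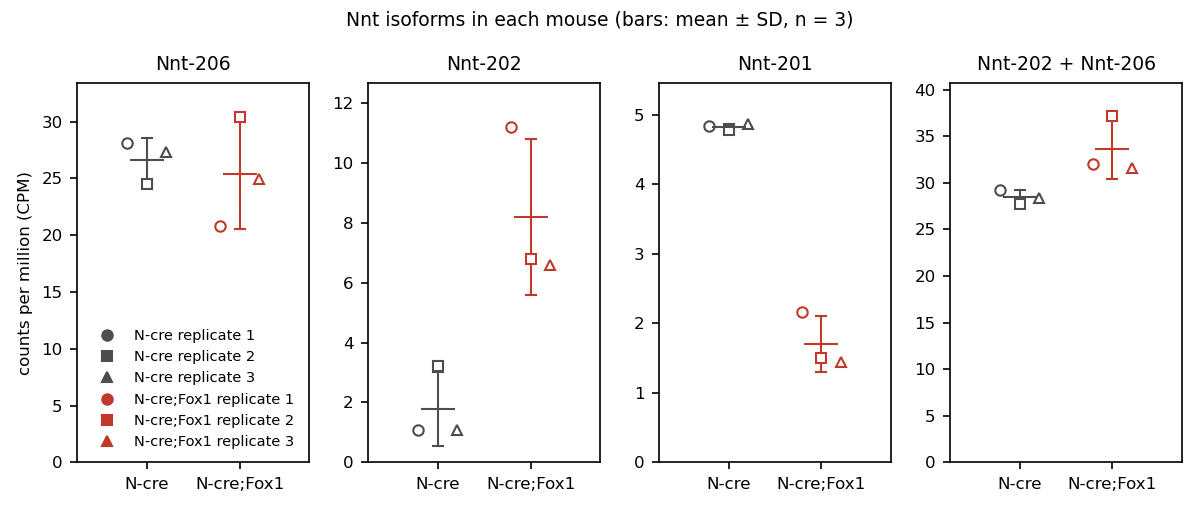
CPM of Nnt-206, Nnt-202, Nnt-201 and the sum of Nnt-202 and Nnt-206, each on its own linear axis from 0, for 3 N-cre mice (grey) and 3 N-cre;Fox1 mice (red), with the group mean and SD as bars. Nnt-201 lies between 4.78 and 4.87 CPM in N-cre and between 1.44 and 2.16 CPM in N-cre;Fox1, and the sum lies above 31 CPM only in N-cre;Fox1.

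Nnt-203 and the retained-intron rows Nnt-204 and Nnt-205 were sparse. Nnt-203, which has exons 8 and 9 but ends in a longer exon 14 and lacks exons 15 to 17, stood at 0.363 ± 0.0977 CPM in N-cre and 0.324 ± 0.0708 CPM in N-cre;Fox1 (SD, n = 3 each), which overlap. Nnt-204 and Nnt-205 did not pass the filter on low counts.

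As a share, Nnt-201 held 14.1%, 14.5% and 14.5% of the counts of the isoforms with a known state of exons 8 and 9 (Nnt-201, Nnt-202, Nnt-203 and Nnt-206) in the N-cre mice. In the N-cre;Fox1 mice the share was 6.29%, 3.83% and 4.31%. The means were 14.4% ± 0.236 and 4.81% ± 1.31 (SD, n = 3 each), a difference of -9.55 percentage points. The shares rested on 1363 to 2278 counts per mouse, and the 95% Wilson intervals ran from 12.7% to 16.4% over the N-cre mice and from 3.11% to 7.46% over the N-cre;Fox1 mice. These intervals cover counting error only, with each expected count taken to its nearest whole number, and not RSEM's division of reads. Per length, with each isoform's count divided by its length, the shares were 15.2% ± 0.258 and 5.17% ± 1.42 (SD, n = 3 each).

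**Figure D2:**
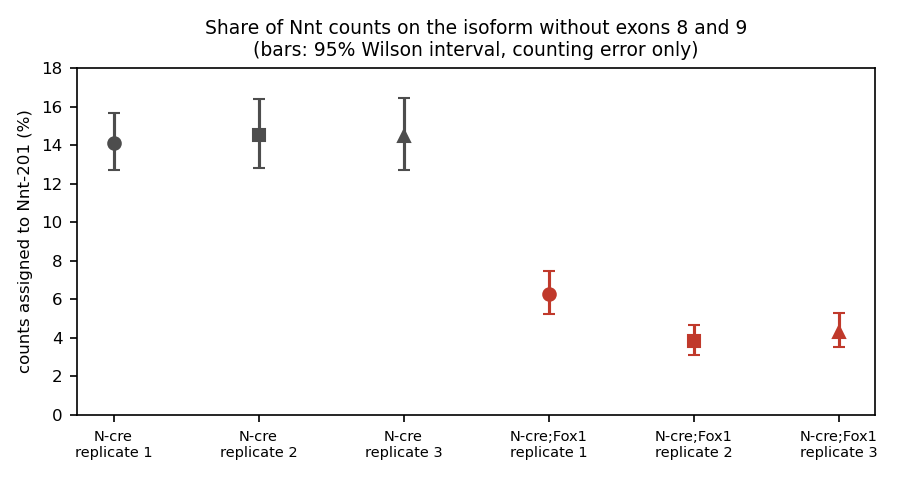
Percent of Nnt counts on the isoform without exons 8 and 9 in each of the 6 mice, with 95% Wilson intervals that show the counting error of each mouse's value alone and are no test between the genotypes, since Nnt was chosen on these values. The N-cre mice lie at 14.1% to 14.5% and the N-cre;Fox1 mice at 3.82% to 6.27%, computed on counts rounded to whole numbers.

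Summed over its 6 rows, Nnt stood at 34.5, 33.1 and 33.7 CPM in the N-cre mice and at 34.5, 39.3 and 33.4 CPM in the N-cre;Fox1 mice. Only N-cre;Fox1 replicate 2 stood apart, and the other 5 mice lay between 33.1 and 34.5 CPM. The log2 fold change of the sum was 0.08 with an SE of 0.0609, and 0.0097 without N-cre;Fox1 replicate 2. That mouse, and N-cre replicate 3 with it, also held far more RNA of choroid plexus markers (Ttr, Folr1, Kl, Aqp1 and Clic6). Summed, the 5 markers reached 5042 CPM in N-cre;Fox1 replicate 2 and 2239 CPM in N-cre replicate 3, against 26.5 to 36.4 CPM in the other 4 mice. Nnt was high in the first of these mice but not in the second, and the part of choroid plexus RNA in it was not tested. Without both mice the log2 fold change, an alternative chosen after seeing the data, was 0.0080 for the Nnt sum, -1.42 for Nnt-201 and 2.05 for Nnt-202.

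Among 13746 genes with a mean count of at least 100, the 5 whose log2 CPM over the 6 mice was most like that of the Nnt sum were Utrn (Pearson r 0.995), Ndufb11 (0.993), Mycbp (0.991), Bbs9 (0.991) and Ggt5 (0.989). Utrn encodes utrophin, a relative of dystrophin, and Ndufb11 a subunit of respiratory complex I. Each of the 5 was highest in N-cre;Fox1 replicate 2, at 45.8 CPM for Utrn against 37.2 to 38.7 CPM in the other 5 mice, so the likeness rests mainly on 1 library. Of the listed enzymes, Sod1 came closest at 0.880, and Txn2 lay farthest at -0.68. These are correlations over 6 libraries that share this mouse, given as a description.

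No tested gene beside Nnt passed the test. The nearest, Paip1, which encodes a partner of the poly(A)-binding protein, starts 19.6 kb from Nnt and stood at 50.8 ± 0.475 CPM in N-cre and 50.9 ± 2.49 CPM in N-cre;Fox1 (SD, n = 3 each). On the side of lower coordinates the nearest annotated gene is the lincRNA Gm47336, which was not among the genes tested, and the nearest tested one is Fgf10, a growth factor gene 543 kb away, with a log2 fold change of -0.09 (SE 0.102; edgeR adjusted p = 0.949). Of 14 tested genes within 2 Mb of Nnt, edgeR called 0 at an adjusted p of 0.05, beside 0.0264% of all genes tested (5 of 18924). At an unadjusted p under 0.05 in edgeR there was 1 of the 14, beside 6.19% of all genes tested. It was Zfp131, a zinc finger gene named after its value was seen, at 33.4 ± 0.910 CPM in N-cre and 36.1 ± 1.51 CPM in N-cre;Fox1 (SD, n = 3 each; edgeR adjusted p = 0.799). Zfp131 was also the 1 of the 14 whose genotypes did not overlap, beside 12.1% of all genes tested.

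The 8 other enzymes differed little between the genotypes. None of the 8 passed an adjusted p of 0.05 in edgeR (0 of 8, with 0 at an unadjusted p under 0.05). The edgeR background was 0.0264% of genes called and 6.19% with an unadjusted p under 0.05. DESeq2's Wald test and limma-voom also called 0 of the 8, where they called 50 and 6 of 18924 genes. All 8 overlapped between the genotypes in CPM, where 12.1% of all genes tested did not. Their log2 fold changes ran from -0.080 to 0.0084, 3 above 0 and 5 below, with a median size of 0.00860 against 0.0668 over all genes. These sizes are not matched for abundance, since the 8 had mean counts of 645 to 9017. The median coefficient of variation was 7.36% over all genes tested. Among genes with a mean count within a factor of 2 of each enzyme's it was 3.23% to 6.58%. The adjusted p ran from 0.902 to 0.996, and the widest 95% interval, that of Txnrd2, reached from -0.24 to 0.13.

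Superoxide dismutases turn superoxide into hydrogen peroxide. Sod2, the manganese enzyme of the mitochondrial matrix, was the steadiest of the 9 genes, at 114, 117 and 114 CPM in N-cre and 117, 115 and 114 CPM in N-cre;Fox1. Its coefficient of variation over the 6 mice was 1.203%, and 2.43% of the 3290 genes with a mean count within a factor of 2 of its own had a smaller one. Sod1, the copper-zinc enzyme of the cytosol and the intermembrane space, was at 115, 110.2 and 111 CPM in N-cre and 109.8, 119 and 108 CPM in N-cre;Fox1. The highest of the 6 was again N-cre;Fox1 replicate 2. The 95% intervals of the log2 fold change were -0.07 to 0.08 for Sod2 and -0.09 to 0.10 for Sod1.

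Of the matrix thioredoxin system, Prdx3 had the largest difference of the 8. It stood at 47.0, 52.9 and 46.4 CPM in N-cre and at 48.9, 44.6 and 44.8 CPM in N-cre;Fox1, so that the spread came mostly from N-cre replicate 2 and the groups overlapped (log2 fold change -0.08, SE 0.0575, edgeR adjusted p = 0.902). Txn2 was at 90.4, 94.95 and 92.1 CPM against 94.0, 89.7 and 91.8 CPM, with a 95% interval of -0.09 to 0.07 on the log2 scale. Txnrd2, the reductase that recharges it, was the lowest in read pairs, at 11.7, 12.8 and 12.8 CPM against 10.9, 11.8 and 13.1 CPM. Its coefficient of variation over the 6 mice, 6.87%, was the largest of the 8, and its 95% interval the widest.

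Glutathione peroxidases use glutathione to reduce peroxides. Gpx1, which acts in the cytosol and the mitochondria, was at 36.2, 35.4 and 36.5 CPM in N-cre and 35.4, 37.6 and 34.6 CPM in N-cre;Fox1, a log2 fold change of -0.0046 with a 95% interval of -0.11 to 0.10. Gpx4, which reduces lipid peroxides within membranes, was the most abundant by read pairs, at 165, 174 and 173 CPM against 161, 179.7 and 168 CPM, with an interval of -0.11 to 0.09. A processed pseudogene, Gpx4-ps2, shares 762 nt of Gpx4-202 at 99.7% identity and had mean counts of 188 and 44.3 in its 2 rows against 8520 for Gpx4-202, so reads could pass between them. Catalase (Cat), the peroxisomal enzyme, was at 46.4, 44.8 and 46.2 CPM against 45.3, 47.1 and 46.0 CPM, again within the spread of the mice (95% interval -0.07 to 0.09).

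**Figure D3:**
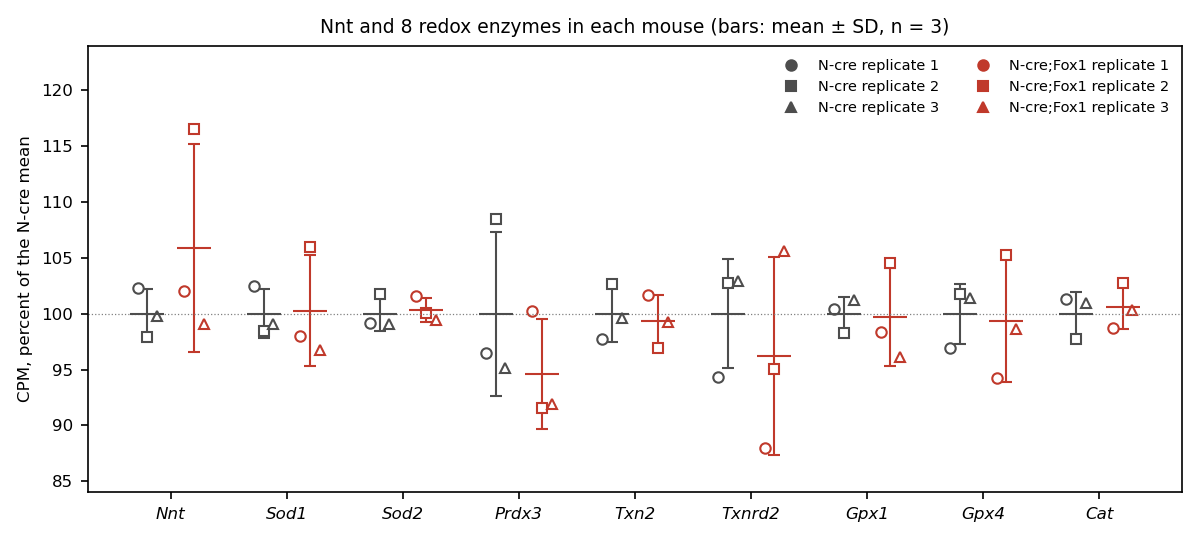
CPM of Nnt and the 8 other enzymes in each mouse as percent of the N-cre mean of that gene, with group mean and SD as bars, on an axis that does not start at 0. The 2 genotypes overlap for every gene, and the highest point is Nnt in N-cre;Fox1 replicate 2 (39.3 CPM against an N-cre mean of 33.8).

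Gpx1, Gpx4 and Txnrd2 are selenoproteins, in which an in-frame TGA codes for selenocysteine at the active site. The bases around that codon are shown from the most abundant isoform of each, with the TGA in capitals, since it is the feature that sets these 3 apart from the other members whose sequence could be read.
Gpx1-201, codon 47 of 201: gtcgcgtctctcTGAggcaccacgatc
Gpx4-202, codon 73 of 197: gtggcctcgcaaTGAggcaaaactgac
Txnrd2-203, codon 526 of 527: gtgactggttgcTGAggctaa
No in-frame TGA before the stop was found in Nnt-206, Prdx3-201, Txn2-201 or Cat-201. Sod1-201 and Sod2-201 carry another version number in the annotation read here, and their sequence was not used.

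No isoform row of the 8 enzymes passed the test either. Of 40 rows 19 passed the filter on low counts, and 0 of them passed an adjusted p of 0.05 in edgeR, as did 0 of all 50556 isoforms tested (0%). At an unadjusted p under 0.05 there were 0 of the 19, against 4.78% of all isoforms tested. With DESeq2's Wald test and limma-voom 0 of the 19 passed, where 215 and 0 of 50556 isoforms did. Gpx1-204, a 653-nt protein-coding row that made up 22.8% of Gpx1 counts on average, was the 1 of the 19 whose genotypes did not overlap, where 11.5% of all isoforms did not. It stood at 8.19, 9.42 and 8.30 CPM in N-cre and at 6.95, 8.11 and 8.15 CPM in N-cre;Fox1 (log2 fold change -0.16, SE 0.111, edgeR adjusted p = 0.990).

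Most of the genes had 1 leading isoform. Gpx4-202 held 94.6% of Gpx4 counts on average over the 6 mice, Txn2-201 96.1% of Txn2, and Cat-201 99.9% of Cat, while Sod1, Sod2 and Prdx3 have 1 row each. Gpx1 was the most divided, with Gpx1-201 at 64.8%. Txnrd2-203, the leading one of 16 Txnrd2 rows, held 76.3%, 77.6% and 77.9% of Txnrd2 counts in N-cre and 81.6%, 83.9% and 82.4% in N-cre;Fox1. These shares (77.3% ± 0.856 and 82.6% ± 1.13, SD, n = 3 each) did not overlap, a difference named after its values were seen and not tested, while in CPM the row overlapped between the genotypes (log2 fold change 0.040, SE 0.103, edgeR adjusted p = 0.994). The largest fitted isoform change upward was that of Gpx4-207, at 9.59, 5.93 and 5.42 CPM in N-cre and 8.98, 8.83 and 9.27 CPM in N-cre;Fox1 (log2 fold change 0.37, SE 0.222, edgeR adjusted p = 0.990), where N-cre replicate 1 lay above all 3 N-cre;Fox1 mice. The largest downward among rows with a mean count of at least 10 was Txnrd2-206, at 0.986 ± 0.235 CPM in N-cre and 0.718 ± 0.0328 CPM in N-cre;Fox1 (SD, n = 3 each), with overlap. The minor rows Txn2-203, Txn2-204, Txn2-206, Gpx1-202, Gpx4-201, Txnrd2-209 and Txnrd2-215 also overlapped, with log2 fold changes from -0.33 (Gpx4-201) to 0.21 (Txn2-204), and Txnrd2-216 did not pass the filter.

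Levels can be compared between genes only per length, as TPM (read pairs per length, scaled to a common total, with isoform lengths from GENCODE M21). Over the 6 mice Gpx4 stood at 423 ± 17.8 TPM and Sod1 at 410.0 ± 15.9 TPM, which overlap, followed by Txn2 at 166 ± 3.46, Gpx1 at 93.6 ± 3.15, Prdx3 at 75.3 ± 4.72, Sod2 at 46.0 ± 0.589, Cat at 41.3 ± 0.820, Nnt at 24.5 ± 1.73 and Txnrd2 at 18.5 ± 1.68 TPM (SD, n = 6 each). From Sod1 downward each gene lay above the next in every mouse. The isoforms of Sod1 and Sod2 carry another version number in that annotation, so their lengths, and with them their places, are uncertain. With the length of each gene's longest isoform in place of the expressed ones, Txnrd2 fell to 11.9 TPM and Sod1 (489 TPM) passed Gpx4 (479 TPM).

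The other genes of these pathways were taken as 5 lists with 83 genes, chosen with earlier results of these data known, of which 82 were tested. In edgeR 0 of 82 passed an adjusted p of 0.05 (background 0.0264%), and 4 had an unadjusted p under 0.05 (background 6.19%). DESeq2's Wald test and limma-voom also called 0 of the 82, where they called 50 and 6 of 18924 genes. In CPM 7 of the 82 were higher and 1 lower in N-cre;Fox1 without overlap, where 12.1% of all genes did not overlap. The 4 genes, all with higher values in N-cre;Fox1 and named after their values were seen, were Txnrd1, the cytosolic thioredoxin reductase, at 57.9 ± 0.161 and 62.9 ± 1.74 CPM, Glud1, glutamate dehydrogenase, at 225 ± 2.98 and 240.1 ± 4.29 CPM, Mthfd1, a folate enzyme, at 40.4 ± 1.07 and 43.9 ± 0.910 CPM, and Bach1, a repressor of antioxidant genes, at 12.9 ± 0.0883 and 14.5 ± 0.984 CPM (SD, n = 3 each, N-cre first). Their edgeR adjusted p lay between 0.660 and 0.799.

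By list, the 16 NADPH sources had a median log2 fold change of 0.011, with Mthfd2l (0.12, SE 0.0910) and Aldh1l1 (-0.14, SE 0.0853) at its ends among genes with a mean count of at least 100. The 20 genes of the thioredoxin and peroxiredoxin system had a median of 0.025, from Nxn (-0.11, SE 0.161) to Prdx6 (0.13, SE 0.109), and the 25 of the glutathione system a median of -0.0037, from Ggct (-0.12, SE 0.0684) to Gpx8 (0.47, SE 0.388). The 9 tested genes of superoxide and copper handling had a median of -0.0012, from Xdh (-0.50, SE 0.386) to Aox1 (0.27, SE 0.243). The 12 genes of the Nfe2l2 list had a median of 0.044, from Keap1 (-0.028, SE 0.0352), which holds Nfe2l2 back, to Bach1 (0.17, SE 0.0702). This list holds Nfe2l2, the main activator of antioxidant genes, and regulators such as Keap1 and Bach1 beside genes that answer to it. The median over all genes tested was -2.6e-05, and none of the genes at the ends of the lists passed, with edgeR adjusted p from 0.799 to 0.970. Summed astrocyte markers (Aqp4, Gfap, Slc1a3, Gja1 and Aldoc) were at 2057 to 2137 CPM in N-cre and 2157 to 2387 CPM in N-cre;Fox1. Of the 5, 3 were higher without overlap, where 12.1% of all genes tested did not overlap. Slc1a3 had a mean of 601 CPM in N-cre and 593 CPM in N-cre;Fox1. The marker lists of CA1 pyramidal cells (Wfs1, lower), CA3 pyramidal cells (Nectin3, higher), dentate granule cells (Trpc6, higher) and oligodendrocytes (Mobp, higher) held 1 marker each without overlap. The part of cell types in the differences of the redox genes was not tested.

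**Figure D4:**
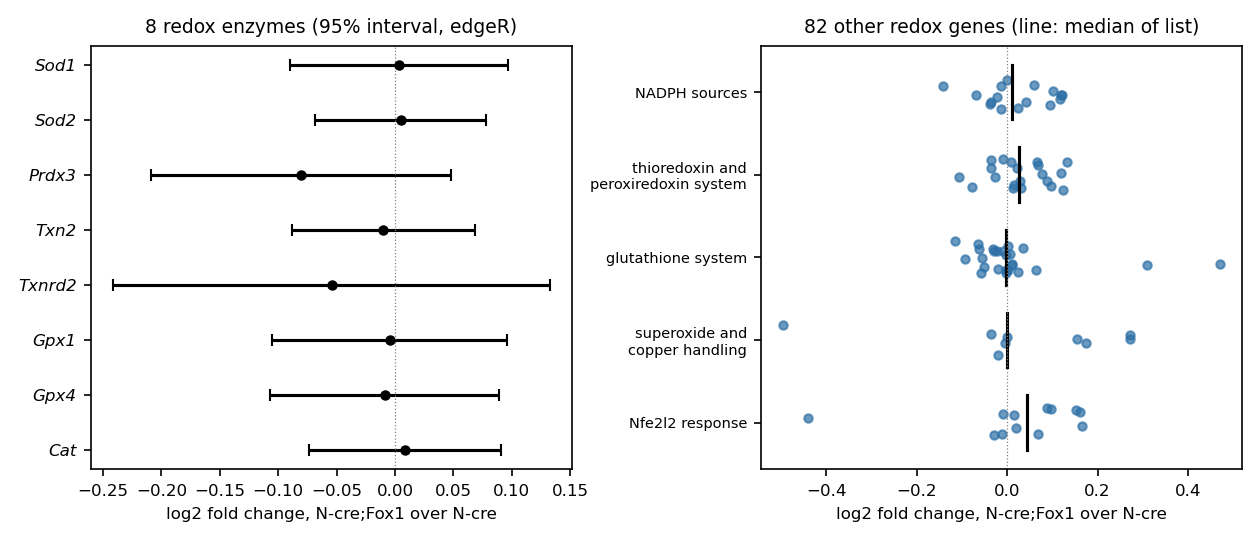
Left, log2 fold change of N-cre;Fox1 over N-cre with its 95% interval from edgeR for the 8 enzymes, all of which include 0. Right, log2 fold change of the 82 tested genes of the 5 redox lists, 1 point a gene, with the median of each list as a line, between -0.0037 and 0.044.

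The libraries held 40463587 to 62141336 read pairs assigned to isoforms. Markers of neurons, CA1 and CA3 pyramidal cells, dentate granule cells, oligodendrocytes, microglia and endothelium were present in all 6, and those of thalamus and striatum summed to 96.9 to 148 CPM, highest in N-cre;Fox1 replicate 2. The summed count of Rbfox1, the gene of the transgene, was at 279 ± 8.04 CPM in N-cre and 281 ± 23.1 CPM in N-cre;Fox1 (SD, n = 3 each) and overlapped. Of its 2 main rows, Rbfox1-202 was at 32.98, 33.5 and 35.5 CPM against 45.8, 40.8 and 44.5 CPM, without overlap (edgeR adjusted p = 0.623). Of all isoforms tested, 11.5% did not overlap. A higher value in the labelled carriers was thus seen in that row and not in the sum. The study reported a modest rise of Rbfox1 mRNA in hippocampi of this genotype, without showing the data.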

How the data were processed

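Hippocampal RNA from 6 animals with separate tags, 3 of each genotype, was sequenced as stranded total RNA (paired-end). According to the submitters' processing notes, the authors used FastQC 0.11.5, Picard 1.119, cutadapt 1.18, STAR 2.5.2b and RSEM 1.3.0 on mm10, with GENCODE annotation, and deposited RSEM expected counts per isoform, not normalized, in 1 table. RSEM divides reads shared by isoforms, so counts of overlapping isoforms depend on each other. RSEM's strand setting is not given in the sources used here. All 6 columns of values were used, and 0 others were present.

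Expected counts were rounded for the tests, filtered with filterByExpr (minimum count 10, total 15), scaled by TMM and fitted over all genes (symbol sums) or all isoforms with genotype alone in edgeR 4.0.16's quasi-likelihood test (R 4.3.3), with Benjamini-Hochberg adjustment, a threshold of 0.05 and 2-sided p-values. The SE is the log2 fold change over the root of the F statistic. DESeq2 1.42.0 and limma 3.58.1 were alternatives, beside other scalings, filters, unrounded counts, a replicate block and each mouse left out. The fits were tested on simulated counts. CPM are counts over the gene fit's effective library sizes. Lengths and exons came from GENCODE M21 on GRCm38 (130826 isoforms with the same version, 2619 with another), near copies from BLAST 2.17.0 (at least 95% identity over 150 nt) and intervals from SciPy 1.17.1.

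The members and gene lists were chosen with earlier results of these data known. Named were all members and their isoforms with a mean count of at least 10, list genes past the threshold and otherwise the largest change each way with a mean count of at least 100, the nearest genes of Nnt, called genes within 2 Mb and the 5 genes most like Nnt.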

Additional observations from a re-analysis of the deposited data

How the results depend on the processing

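The counts of called enzymes, enzyme isoforms and redox list genes stayed at 0 under every alternative run. Genes called over the whole table went from 5 to 45 with no filter beyond 1 count in total and to 50 with DESeq2's Wald test, and with a mouse left out they ran from 2 (without N-cre replicate 2) to 29 (without N-cre;Fox1 replicate 1). Isoforms called went from 0 to 10 with no filter, 6 with at least 10 counts in every mouse, 215 with DESeq2's Wald test and 1 with unrounded counts, and stayed at 0 with any mouse left out.

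Signs near 0 turned. With upper quartile scaling the log2 fold change was -0.0065 for Sod1, -0.0051 for Sod2 and -0.0017 for Cat, and with no filter it was 0.00029 for Gpx1. Without the 2 mice with high choroid plexus markers it was -0.043 for Sod1 and 0.0061 for Txn2. With a mouse left out it ran from -0.036 to 0.029 for Sod1, -0.022 to 0.012 for Txn2, -0.13 to 0.010 for Txnrd2, -0.038 to 0.021 for Gpx1, -0.050 to 0.033 for Gpx4, -0.0050 to 0.026 for Cat, -0.33 to 0.071 for Nnt-203 and -0.22 to 0.051 for Nnt-206, and the difference in the share of Nnt-205 from -0.16 to 0.052 percentage points. The cause was not tested. Nnt-201 kept its sign and ran from -1.72 to -1.41, and Nnt-202 from 1.90 to 2.92, the latter without N-cre replicate 2.

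With a replicate block 5 genes, 0 isoforms and 0 enzymes were called. The deviations of same-numbered mice from their group means correlated at 0.72, -0.22 and -0.35 over genes, and not every mouse was most like its own number. N-cre replicate 3 and N-cre;Fox1 replicate 2, the mice with high choroid plexus markers, correlated at 0.75. With 3 mice in a group these correlations depend on each other, so whether the numbers pair the mice cannot be told from them. How depth limits these results was not tested.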
